A study of Mus musculus with 6 samples.

Results

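The mouse genome annotation holds many loci that are transcribed but carry no open reading frame that curators accept and no settled function. The loci described here are those that the annotation joined to the deposited table calls processed_transcript or TEC, without the 5 symbols 4833411C07Rik, Kcnq1ot1, Meg3, Rian and Peg13, of which only 4833411C07Rik had rows of these biotypes. They comprised 3411 of the 68997 rows of the table, or 3162 of 46564 Ensembl genes. Of these genes, 2500 were TEC loci (2601 rows) and 662 were processed transcript loci (810 rows), and both are reported apart.

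TEC is the annotation's label for loci that still await experimental proof. In mouse it marks unspliced clusters of expressed sequence tags with features of polyadenylation, which could belong to a gene that has not been described or to the pre-mRNA of a known one. A processed transcript is a spliced RNA with no open reading frame that fits no narrower noncoding class, and hosts of small nucleolar RNAs (snoRNAs) and of microRNAs are found among them.

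RNA was measured in livers of C57BL/6 mice of wt genotype, 10 weeks old and kept on NCD. Of 6 mice, 3 received Ad-MAFG, an adenovirus with Mafg cDNA behind a CMV promoter, and 3 received Ad-CMV, the empty vector. Both groups thus carry an adenovirus, and the viral promoter is not bound to 1 cell type. MAFG belongs to the small MAF family, whose members lack a transactivation domain and bind DNA as dimers with one another or with partners such as NRF2 and BACH1. The question of the comparison is how noncoding loci respond to added MAFG. The authors' table gives 1 FPKM value per group (fragments scaled to transcript length and to the number of mapped fragments), pooled by Cuffdiff over the mice of the group. It therefore carries no value per mouse, no SD and no depth per library, and the differences below are descriptions of these pooled values without a test. Mafg itself was not analysed here.

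Markers of hepatocytes summed to 6321 FPKM in Ad-MAFG livers and 6038 FPKM in Ad-CMV livers, and 5 of 6 had 0.5 FPKM or more in the higher group, with the listed row of Ttr below it (0 at least 2-fold higher, 2 lower). Hepatocyte RNA was thus abundant, as the tissue label says. Of the other lists, stellate cell markers summed to 101 FPKM in Ad-MAFG livers and 30.5 FPKM in Ad-CMV livers (2 of 5 at least 2-fold higher), cholangiocyte markers to 7.48 FPKM with Ad-MAFG and 4.65 FPKM with Ad-CMV (1 of 4 higher, Krt7 listed at 0) and macrophage markers to 28.1 FPKM with Ad-MAFG and 34.7 FPKM with Ad-CMV (1 of 5 lower). Endothelial markers summed to 28.6 FPKM with Ad-MAFG and 32.8 FPKM with Ad-CMV, T and NK cell markers to 6.23 FPKM with Ad-MAFG and 7.53 FPKM with Ad-CMV and B cell markers to 0.493 FPKM with Ad-MAFG and 0.766 FPKM with Ad-CMV, with none 2-fold apart. The part of cell composition in the values below was not tested, and in bulk liver fewer cells of a type and less RNA per cell cannot be told apart.

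The strand on which a value lies is needed to read these loci, because most of them share their position with another gene. The library kit marks strand, but the strand setting of the assembly is not given in the sources used here. The strand of a row was read from the numbering of the assembled loci, which runs along the plus strand of a chromosome first and then along the minus strand. All 24914 rows at 0 in both groups that could be placed lie on the strand of the gene they are named for. In contrast, 6289 of 8958 protein-coding genes with at least 0.5 FPKM in the higher group (70.2%) had their highest row on the opposite strand, as had 22 of 27 such cell type markers. Of the members past the same minimum, 54 of 206 TEC loci (26.2%) and 60 of 166 processed transcript loci (36.1%) did. Reads of a locus and of a gene on the other strand at the same position can therefore not be told apart here.

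The following TEC sequences show how these loci are annotated, from GENCODE M21 on GRCm38. Each is printed along the strand of the locus. These 4 are the last 120 bases of the transcript, in which capitals mark AATAAA or ATTAAA, the hexamers that direct cleavage and polyadenylation, within the last 60 bases. Gm44729 (chr7:127275196-127275315, plus strand) is among the most abundant members, Gm43268 (chr5:53909099-53909218, plus) and Gm38388 (chr1:60594807-60594926, minus) were higher with Ad-MAFG, and RP23-144H18.4 (chr8:105051049-105051168, minus), which has a run of CT repeats but no hexamer there, had the lowest ratio of the TEC loci.
Gm44729: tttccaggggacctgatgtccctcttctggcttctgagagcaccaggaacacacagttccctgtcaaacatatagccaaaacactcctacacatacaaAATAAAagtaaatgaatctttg
Gm43268: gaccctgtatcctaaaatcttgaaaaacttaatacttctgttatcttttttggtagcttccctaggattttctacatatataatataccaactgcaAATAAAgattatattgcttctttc
Gm38388: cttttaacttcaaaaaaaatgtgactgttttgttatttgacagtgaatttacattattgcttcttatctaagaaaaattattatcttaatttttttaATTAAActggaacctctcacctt
RP23-144H18.4: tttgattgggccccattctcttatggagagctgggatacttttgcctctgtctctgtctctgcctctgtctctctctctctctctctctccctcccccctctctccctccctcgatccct

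For a pair of TEC loci that lie across the first part of a metabolic or signalling gene, 200 bases at the edge of an exon of that gene are shown, with the bases inside the exon in capitals. D630002J18Rik (chr3:152165548-152165747, plus strand) crosses an exon of Gipc2 on the minus strand, and RP23-296G24.1 (chr8:46472330-46472529, minus) an exon of Acsl1 on the plus strand.
D630002J18Rik: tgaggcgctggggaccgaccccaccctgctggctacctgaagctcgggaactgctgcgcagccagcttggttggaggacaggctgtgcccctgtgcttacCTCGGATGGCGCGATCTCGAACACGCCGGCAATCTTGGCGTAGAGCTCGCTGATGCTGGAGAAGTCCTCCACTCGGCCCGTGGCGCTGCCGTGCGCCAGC
RP23-296G24.1: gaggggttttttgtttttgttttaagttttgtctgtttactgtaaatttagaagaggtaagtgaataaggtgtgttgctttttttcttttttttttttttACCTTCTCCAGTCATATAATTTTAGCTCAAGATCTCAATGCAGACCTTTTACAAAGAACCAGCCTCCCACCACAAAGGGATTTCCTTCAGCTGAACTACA

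Promoters of 3 processed transcript loci are printed from RefSeq (GRCm38.p6), from 250 bases before to 50 after the start. Capitals mark matches to short forms of the elements that MAF proteins bind. RP23-114A6.4 (chr7:140905771-140906070, plus strand), whose level was strongly lower with Ad-MAFG, had none. 4930506C21Rik (chr17:8311069-8311368, minus), also lower, had TGACNNNGC on the other strand, and 8030453O22Rik (chr6:39527291-39527590, plus), which was higher, had TGCTGAC on the other strand. Most of the 4930506C21Rik window, with its match, also lies within the gene Sft2d1 on the plus strand.
RP23-114A6.4: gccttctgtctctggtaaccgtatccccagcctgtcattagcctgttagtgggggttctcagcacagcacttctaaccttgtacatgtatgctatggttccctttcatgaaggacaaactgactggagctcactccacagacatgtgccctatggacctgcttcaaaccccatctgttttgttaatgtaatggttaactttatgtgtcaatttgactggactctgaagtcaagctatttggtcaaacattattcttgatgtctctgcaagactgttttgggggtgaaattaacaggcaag
4930506C21Rik: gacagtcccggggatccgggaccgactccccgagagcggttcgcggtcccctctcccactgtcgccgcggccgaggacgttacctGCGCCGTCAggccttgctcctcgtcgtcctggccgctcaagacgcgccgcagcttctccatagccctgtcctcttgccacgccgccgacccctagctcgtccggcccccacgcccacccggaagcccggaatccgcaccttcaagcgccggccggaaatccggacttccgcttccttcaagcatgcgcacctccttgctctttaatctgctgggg
8030453O22Rik: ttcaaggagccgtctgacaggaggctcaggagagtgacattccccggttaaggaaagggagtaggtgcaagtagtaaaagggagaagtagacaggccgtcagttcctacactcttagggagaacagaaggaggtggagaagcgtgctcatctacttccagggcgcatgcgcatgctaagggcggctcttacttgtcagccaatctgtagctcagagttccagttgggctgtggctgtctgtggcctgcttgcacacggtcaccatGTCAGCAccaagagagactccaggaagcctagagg

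Most of these loci stayed under 0.5 FPKM in both groups. Of 2500 TEC genes, 1667 (66.7%) were listed at 0 in both groups and 206 (8.24%) reached 0.5 FPKM in the higher group. Of 662 processed transcript genes, 228 (34.4%) were at 0 and 166 (25.1%) reached the minimum. A listed 0 does not show that a locus was silent, since 26.2% of protein-coding genes were at 0 too, Mpc1, the gene of a mitochondrial carrier subunit, among them, and all placed rows at 0 lie on the strand of their gene. For comparison, the minimum was reached by 9.48% of 3849 lincRNA genes, 24.3% of 2213 antisense genes and 42.2% of 21255 protein-coding genes. The members that reached it were low: the median FPKM of the higher group was 1.19 for TEC and 1.31 for processed transcript loci, against 2.57 for protein-coding genes. Only 20 TEC and 14 processed transcript loci had 5 FPKM or more, and 2 and 1 had 50 or more. All 206 and 166 members past the minimum carry the status OK in the table, which marks enough alignments. Structure followed the biotype, since 204 of 205 TEC loci with an annotated transcript had a single exon, against 4 of 166 processed transcript loci.

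The share of TEC loci past the minimum differed with their orientation to protein-coding genes. Of the 376 that overlap such a gene on its opposite strand, 130 (34.6%) reached the minimum, against 33 of the 1167 that overlap one on the same strand (2.83%). The contrast lay in introns, where 61 of 169 opposite-strand loci (36.1%) and 29 of 1154 same-strand loci (2.51%) passed, whereas over exons 69 of 207 (33.3%) and 4 of 13 (30.8%) did. Of TEC loci with no protein-coding gene within 5 kb, 22 of 706 (3.12%) did. All 17 TEC loci over a gene and at 5 FPKM or more lay on its opposite strand. Among processed transcript loci, 106 of 358 opposite-strand (29.6%) and 8 of 51 same-strand (15.7%) overlapping loci passed, and 0 of the 22 in a same-strand intron did. No test over loci was run on these shares.

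**Figure D1:**
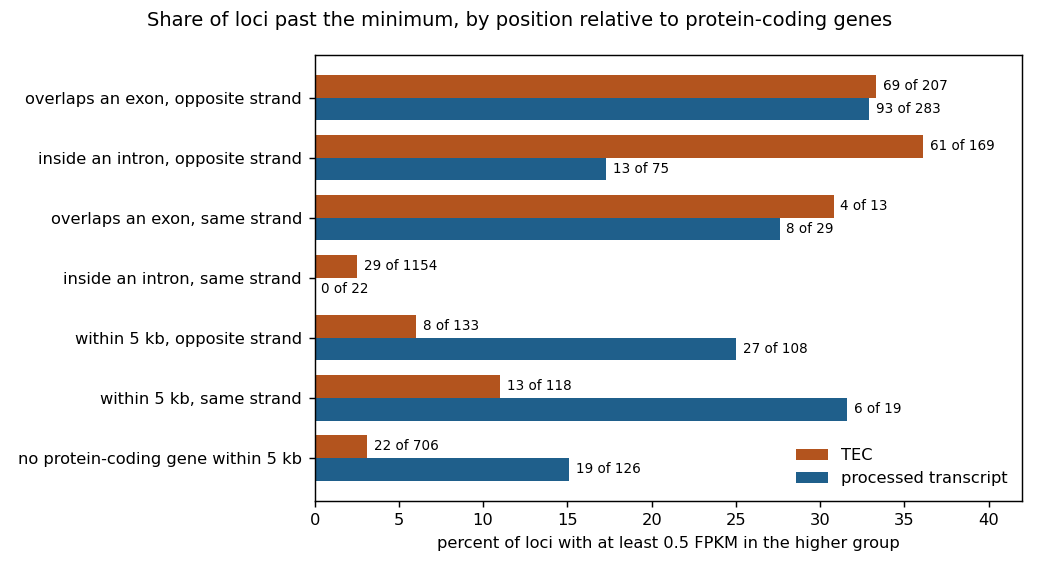
Percent of TEC and processed transcript loci (x axis) with at least 0.5 FPKM in the higher group, for 7 classes of position relative to protein-coding genes of GENCODE M21 (y axis), with the counts beside each bar. Inside introns, 36.1% of opposite-strand TEC loci passed, against 2.51% of same-strand ones.

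The rows that carry these values lay mostly opposite to the overlapping gene, whichever strand the locus itself is annotated on. For TEC loci over a gene on the opposite strand, 127 of 130 had their value on their own strand, while 27 of 33 with a gene on the same strand had it on the strand opposite to themselves. Among the pairs in which the overlapping gene and the locus both passed the minimum, the listed row of the gene lay opposite to the gene in 65 of 101 TEC pairs and 32 of 57 processed transcript pairs, beside 70.2% of all protein-coding genes past the minimum. The strand setting of the assembly and its part in these values was not tested.

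With Ad-MAFG, the level of most members stayed within 2-fold of Ad-CMV livers. On the scale log2((Ad-MAFG + 0.1)/(Ad-CMV + 0.1)) of FPKM, the median was -0.01 for the 206 TEC loci (quartiles -0.25 and 0.25) and -0.11 for the 166 processed transcript loci (quartiles -0.40 and 0.30), beside -0.03 for all 11479 genes past the minimum. At least a 2-fold difference was found for 14 TEC loci (6.80%) and 28 processed transcript loci (16.9%), beside 11.2% of all genes. Of the TEC loci, 8 were higher (3.88%) and 6 lower (2.91%). Of the processed transcript loci, 12 were higher (7.23%) and 16 lower (9.64%). Across all genes 6.00% were higher and 5.17% lower. At this setting the share of TEC loci lay under that of all genes and the share of processed transcript loci over it, beside 16.7% of 365 lincRNAs. The share of processed transcript loci fell under that of all genes with a pseudocount of 1 FPKM and at 4-fold. At the other settings tried it stayed over that of all genes. With a pseudocount of 1 FPKM, 0.971% of TEC and 3.01% of processed transcript loci differed 2-fold, beside 4.26% of all genes, and at least 4-fold was reached by 2.43% and 3.01%, beside 3.17%. With rows on the strand of the gene only, 9 of 154 TEC (5.84%) and 16 of 111 processed transcript loci (14.4%) differed 2-fold, beside 13.5% of all genes.

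**Figure D2:**
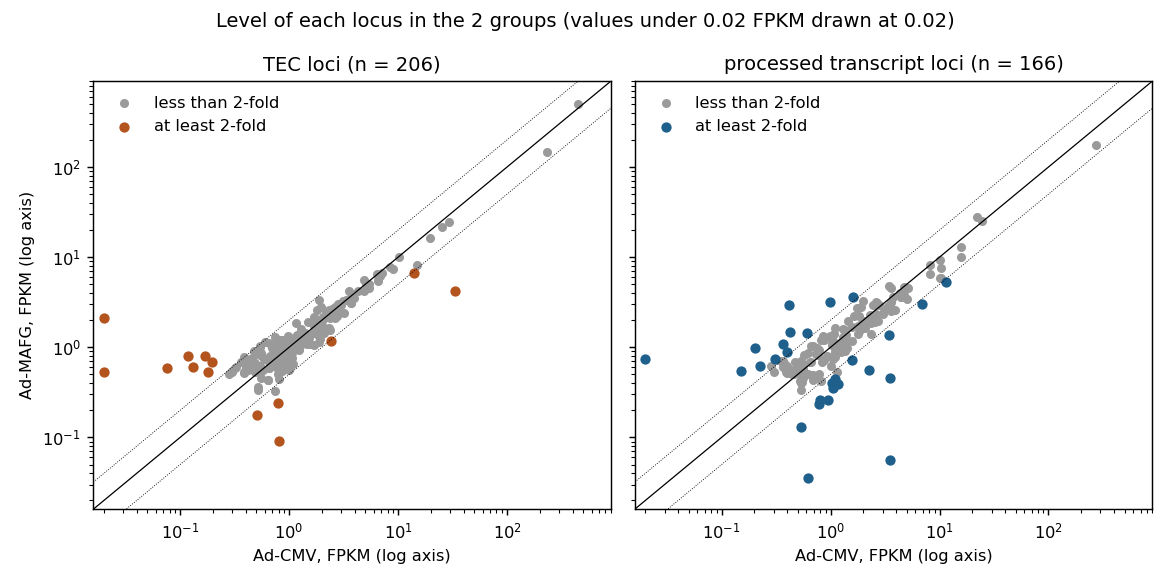
FPKM of each locus past the minimum in Ad-MAFG livers (y axis, log) and Ad-CMV livers (x axis, log), for 206 TEC and 166 processed transcript loci, with 1 pooled value per group. Coloured points differ at least 2-fold on the log2(FPKM + 0.1) scale, dotted lines mark 2-fold, and values under 0.02 are drawn at 0.02. The coloured TEC loci lie mainly under 1 FPKM.

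Most of the TEC loci that differed were low, since 10 of the 14 had less than 1 FPKM in both groups. Of those with 0.5 to 1 FPKM in the higher group, 10 of 82 (12.2%) differed at least 2-fold, beside 15.3% of all genes at that level, and of those with 1 to 5 FPKM 2 of 104 (1.92%), beside 9.11%. At 5 FPKM or more, 2 of 20 did (10.0%), beside 12.4% of all genes, and 17 of these 20 were below 0 on the log2 scale, as were 65.4% of all genes at that level. Processed transcript loci gave 11 of 59 (18.6%), 15 of 93 (16.1%) and 2 of 14 (14.3%) in the same 3 ranges, of which the last is close to that of all genes.

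**Figure D3:**
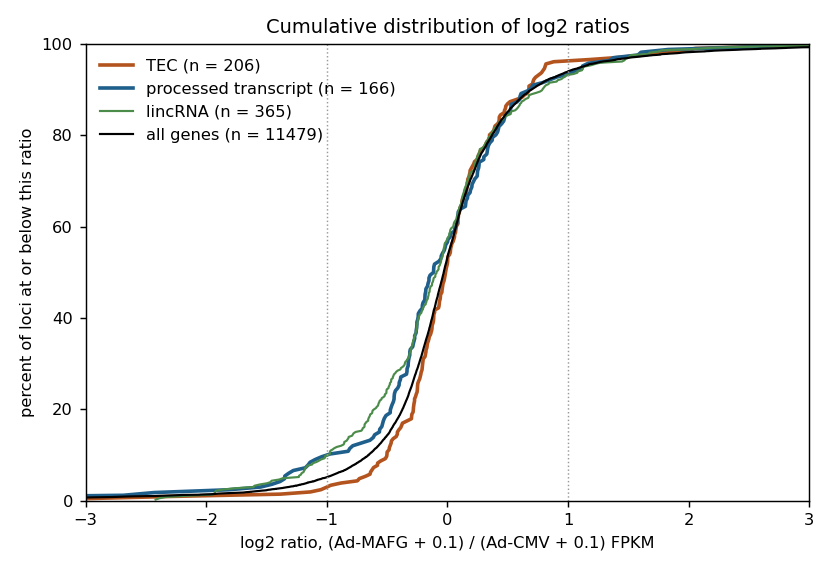
Percent of loci (y axis) at or below each log2 ratio of Ad-MAFG over Ad-CMV (x axis) for TEC, processed transcript, lincRNA and all genes past the minimum, with dotted lines at 2-fold. At the lower 2-fold line the curves stand at 2.91% for TEC and 9.64% for processed transcript loci, beside 5.17% for all genes.

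Of the 5 TEC loci with the highest mean, 4 stayed within 2-fold, and 3 of these 4 lie opposite to a known gene. Gm37376 (chr19:5801941-5802393) had 500 FPKM in Ad-MAFG livers and 445 FPKM in Ad-CMV livers. It lies within Malat1, an abundant nuclear noncoding RNA, on the opposite strand, and the listed row of Malat1 on its own strand had 0.703 FPKM with Ad-MAFG and 0.485 FPKM with Ad-CMV. Gm44729 (chr7:127273264-127275315), opposite to the selenophosphate synthetase gene Sephs2, had 148 FPKM in Ad-MAFG livers and 231 FPKM in Ad-CMV livers (log2 ratio -0.64). Its gene was listed at 0.145 FPKM with Ad-MAFG and 0.218 FPKM with Ad-CMV. Gm37676 (chr1:131932464-131932970), wholly inside exons of Nucks1, which encodes a chromatin-associated phosphoprotein, had 24.7 FPKM with Ad-MAFG and 29.4 FPKM with Ad-CMV, and its log2 ratio of -0.25 was close to the -0.23 of Nucks1. 2900097C17Rik (chr2:156391831-156392979), which GENCODE M21 lists as a lincRNA, has no protein-coding gene within 5 kb and had 21.7 FPKM in Ad-MAFG livers and 25.4 FPKM in Ad-CMV livers, on a row opposite to its annotated strand. Its own-strand row had 0.00602 FPKM with Ad-MAFG and 0.0258 FPKM with Ad-CMV.

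The TEC locus with the lowest ratio was RP23-144H18.4 (named Gm45724 in GENCODE M21, chr8:105051049-105051468), with 4.17 FPKM in Ad-MAFG livers and 33.6 FPKM in Ad-CMV livers (log2 ratio -2.98). It lies inside Ces3a, a carboxylesterase gene of hepatocytes, on the opposite strand, and only 0.238% of its bases overlap an annotated exon. The row of Ces3a was lower too, at 0.103 FPKM in Ad-MAFG livers and 2.52 FPKM in Ad-CMV livers. RP23-296G24.1 (chr8:46471391-46473590), over an exon of the long-chain acyl-CoA synthetase gene Acsl1, had 6.66 FPKM with Ad-MAFG and 13.9 FPKM with Ad-CMV (log2 ratio -1.05), while the listed Acsl1 row had 0.0620 FPKM with Ad-MAFG and 0.0771 FPKM with Ad-CMV. That row was below the minimum, so no ratio of the gene is set beside that of the locus. Both loci belong to the 20 TEC loci at 5 FPKM or more.

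The other lower TEC loci had at most 2.44 FPKM in Ad-CMV livers. Gm43758 (chr5:112372585-112372951), inside an intron of Hps4, which serves the biogenesis of lysosome-related organelles, had 0.0909 FPKM in Ad-MAFG livers and 0.814 FPKM in Ad-CMV livers (log2 ratio -2.26), and Hps4 had 0.538 FPKM with Ad-MAFG and 1.01 FPKM with Ad-CMV. Gm42944 (chr3:18622162-18626141), with no protein-coding gene near it, had 0.240 FPKM with Ad-MAFG and 0.787 FPKM with Ad-CMV (-1.38). Gm38313 (chr3:85195182-85196447), inside an intron of the predicted gene Gm37240 on its strand, had 0.178 FPKM with Ad-MAFG and 0.510 FPKM with Ad-CMV (-1.13). Gm43012 (chr5:137337409-137338345), beside the cotransporter gene Slc12a9, had 1.17 FPKM in Ad-MAFG livers and 2.44 FPKM in Ad-CMV livers (-1.01), just past 2-fold. A530030E21Rik (chr16:19243525-19244834), at 0.328 FPKM with Ad-MAFG and 0.738 FPKM with Ad-CMV (-0.97), stayed inside the limit and lies 1835 bases from the immunoglobulin gene segment Iglv3, which had 0.449 FPKM with Ad-MAFG and 1.35 FPKM with Ad-CMV. All of these lower TEC loci but A530030E21Rik had their value on their own strand.

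Of the 7 TEC loci with the highest ratios, 2 were listed at 0 in Ad-CMV livers. RP23-321G17.10 (Gm45508), inside an intron of Zc3h4 on the opposite strand, had 2.11 FPKM in Ad-MAFG livers and was listed at 0 in Ad-CMV livers. Zc3h4, a zinc finger protein that restrains noncoding transcription, had its highest row at 0.00893 FPKM with Ad-MAFG and 0.115 FPKM with Ad-CMV. Gm37899 (chr12:109668869-109677585) had 0.535 FPKM in Ad-MAFG livers and was listed at 0 in Ad-CMV livers. It lies in the imprinted Dlk1-Dio3 region, whose maternally expressed noncoding RNAs include Rian and Mirg, and its value is on the opposite strand, where a further row had 0.264 FPKM with Ad-MAFG and 0.0232 FPKM with Ad-CMV. Its own-strand row was at 0 in both groups, and Mirg, listed on its own strand, was close to 0 in both.

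D630002J18Rik (chr3:152165374-152166488) had 0.809 FPKM in Ad-MAFG livers and 0.119 FPKM in Ad-CMV livers (log2 ratio 2.05). It overlaps by 52.3% of its length the exons of Gipc2, which encodes a PDZ-domain adaptor protein and whose listed row was higher as well, at 9.47 FPKM with Ad-MAFG and 0.804 FPKM with Ad-CMV (3.40). That row lies on the strand opposite to Gipc2, at the same assembled coordinates as the locus. RP24-306C18.9 (Gm45527, chr7:102685446-102686219), in an intron of the ubiquitin ligase gene Trim68 on the same strand, had 0.593 FPKM with Ad-MAFG and 0.0752 FPKM with Ad-CMV (1.98), beside 1.24 FPKM with Ad-MAFG and 0.498 FPKM with Ad-CMV for Trim68 (1.17). Gm43268 (chr5:53905164-53909218), beside the TBC-domain gene Tbc1d19, had 0.801 FPKM with Ad-MAFG and 0.168 FPKM with Ad-CMV (1.75), but its 4 rows ranged in log2 ratio between 0.05 and 1.75 and Tbc1d19 had 1.85 FPKM with Ad-MAFG and 2.06 FPKM with Ad-CMV. Gm43708 (chr5:141297143-141298103), in an intron of the cell adhesion gene Sdk1, had 0.609 FPKM with Ad-MAFG and 0.130 FPKM with Ad-CMV (1.62). Gm38388 (chr1:60594807-60596236), with no protein-coding gene within 5 kb, had 0.695 FPKM with Ad-MAFG and 0.194 FPKM with Ad-CMV (1.44), and its own-strand row gave a similar ratio (0.314 FPKM with Ad-MAFG and 0.0698 FPKM with Ad-CMV, 1.28). Of the 8 higher TEC loci, 5 had their value on the strand opposite to the annotated one, against 0 of the 6 lower. All genes leaned the same way by strand. With the value on the opposite strand, 6.68% of all genes were at least 2-fold higher and 4.16% lower. On the own strand 4.91% were higher and 6.82% lower.

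**Figure D4:**
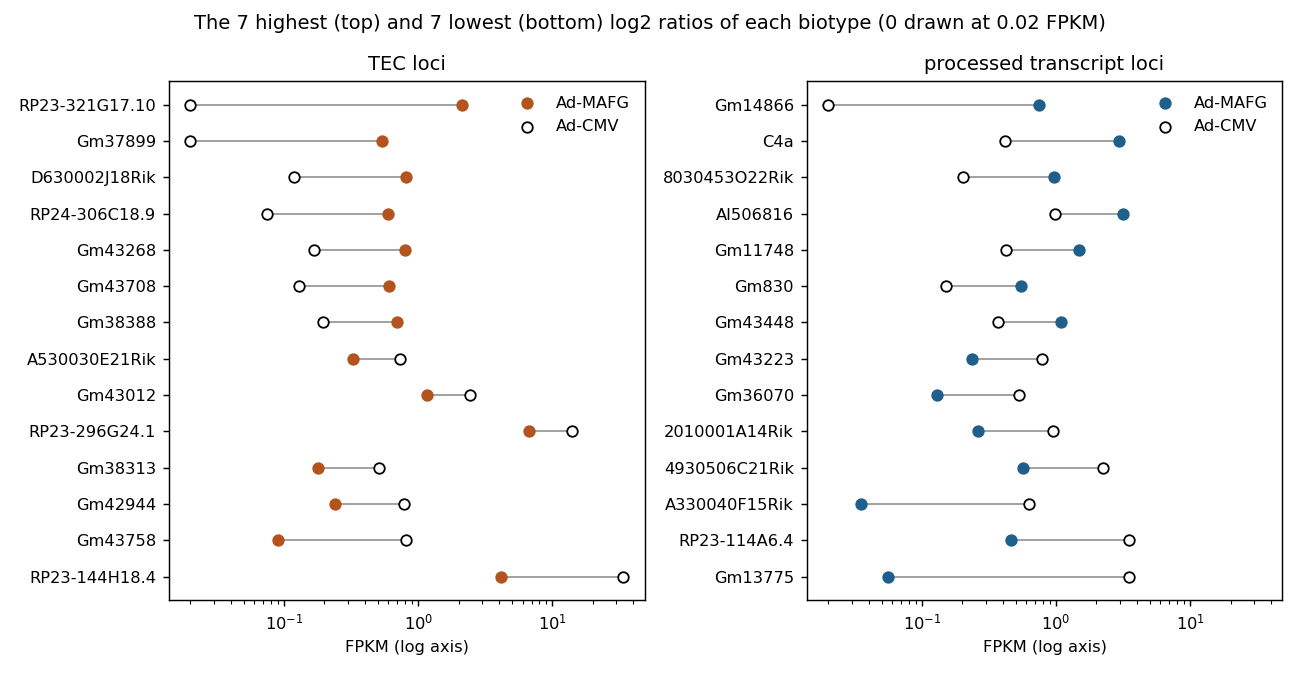
FPKM (x axis, log) in Ad-MAFG livers (filled) and Ad-CMV livers (open) of the 7 TEC and 7 processed transcript loci with the highest and the lowest log2 ratios (y axis). Each point is 1 pooled value, and 0 is drawn at 0.02. The TEC locus farthest to the right is RP23-144H18.4, at 4.17 FPKM with Ad-MAFG and 33.6 FPKM with Ad-CMV, while most others lie under 1 FPKM in both groups.

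The ratios of TEC loci followed those of the protein-coding genes they overlap. Over 101 pairs in which both rows passed the minimum, Pearson's r across loci was 0.79 and Spearman's rho 0.77, and 81 pairs (80.2%) had the same sign. The median absolute difference was 0.15 on the log2 scale. Without the 2 pairs with the largest ratio of the gene (Ces3a and Gipc2), r was 0.64 and rho 0.75. For processed transcript loci, r was 0.37 and rho 0.44 over 57 pairs, 40 of which had the same sign (70.2%), with a median absolute difference of 0.30. These are descriptions across loci, which share the pooled libraries and, in all 101 TEC pairs and 55 of the 57 others, the coordinates of the assembled locus. In 68 of the TEC pairs (67.3%) both rows also lie on 1 strand. Some genes, such as Kansl1l and Ube3a, enter more than 1 TEC pair, so the pairs are not all distinct genes. For loci beside a gene without overlap, r was 0.19 and rho 0.40 over 15 TEC pairs, and r was 0.46 and rho 0.35 over 20 processed transcript pairs.

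**Figure D5:**
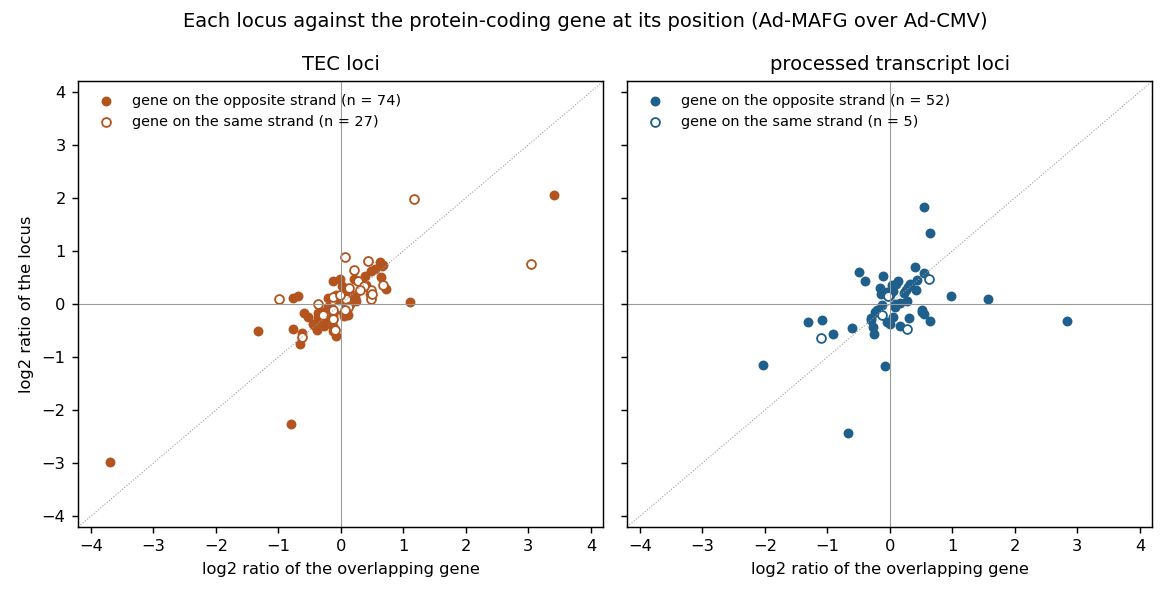
Log2 ratio of each TEC or processed transcript locus (y axis) against that of the protein-coding gene it overlaps (x axis), Ad-MAFG over Ad-CMV, with both rows at 0.5 FPKM or more in the higher group. Filled points have the gene on the opposite strand and open points on the same strand. The TEC points lie near the dotted line of equal ratios (r = 0.79, n = 101), the processed transcript points less so (r = 0.37, n = 57).

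In 4 of the 101 TEC pairs and 5 of the 57 processed transcript pairs the locus differed at least 2-fold, beside 11.2% of all genes. Of these 4 TEC loci, 3 had a gene that differed the same way and 1, Gm43758 in Hps4, a gene that stayed within 2-fold. Of the 5 such processed transcript loci, 1 had a gene that differed the same way, and 0 in either biotype had one that differed the opposite way. Conversely, in 3 TEC pairs and 5 processed transcript pairs the gene differed while the locus did not.

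The 5 processed transcript loci with the highest mean, which include the small RNA hosts Snhg1 and Mir22hg, also stayed within 2-fold. Gm20528 spans the Ugt1a cluster (chr1:88055393-88218584), which encodes enzymes that glucuronidate bilirubin and drugs, on the opposite strand. It had 177 FPKM in Ad-MAFG livers and 272 FPKM in Ad-CMV livers (log2 ratio -0.61), and Ugt1a8, listed on the strand opposite to itself, had 6.37 FPKM with Ad-MAFG and 11.6 FPKM with Ad-CMV (-0.86). Gm20412 (chr2:158117154-158117905), wholly inside exons of the transglutaminase gene Tgm2 on the opposite strand, had 27.9 FPKM in Ad-MAFG livers and 22.1 FPKM in Ad-CMV livers (0.33). The listed row of Tgm2 was close to 0 in both groups. Rprd1b, which spans Gm20412 on the same strand, had 0.734 FPKM with Ad-MAFG and 0.815 FPKM with Ad-CMV, listed opposite to itself. 2410006H16Rik (chr11:62602877-62604807), which holds the snoRNA gene Snord49b, had 25.5 FPKM with Ad-MAFG and 24.5 FPKM with Ad-CMV (0.06).

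Host genes of small RNAs carry snoRNAs in their introns or have transcripts that are cut into microRNAs. Of 9 members on a list of snoRNA hosts by symbol, which does not hold 2410006H16Rik, 6 reached the minimum. Of these 6, 0 differed 2-fold, beside 11.2% of all genes, a share at which few of 6 loci would differ. Their median log2 ratio was -0.12 (range -0.28 to 0.61), beside -0.03 over all genes. Snhg1 (chr19:8723475-8726443), which hosts C/D box snoRNAs, had 13.0 FPKM in Ad-MAFG livers and 15.6 FPKM in Ad-CMV livers. Zfas1 (chr2:167062934-167065862) had 8.27 FPKM with Ad-MAFG and 8.24 FPKM with Ad-CMV, Snhg5 (chr9:88521050-88522929) 2.34 FPKM with Ad-MAFG and 2.59 FPKM with Ad-CMV, and Snhg17 (chr2:158353700-158361580) 2.52 FPKM with Ad-MAFG and 3.09 FPKM with Ad-CMV. The values of Snhg1, Snhg5 and Snhg17 lie on rows opposite to their strand. Their own-strand rows had at most 0.0388 FPKM in either group. Snhg15 (chr11:6525591-6528760) had the highest ratio of the list, at 2.71 FPKM with Ad-MAFG and 1.74 FPKM with Ad-CMV (0.61), and its own-strand row pointed the same way (1.96 FPKM with Ad-MAFG and 1.45 FPKM with Ad-CMV). Snhg14 (chr7:59307924-59975759), the imprinted transcript that runs across the Snord116 cluster and opposite to Ube3a, had 9.38 FPKM in Ad-MAFG livers and 10.1 FPKM in Ad-CMV livers. Gas5, Snhg4 and Snhg8 stayed under 0.5 FPKM.

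Of 3 members on the list of microRNA hosts, Mir22hg (chr11:75461539-75466676) and Mir99ahg (chr16:77236317-77691403) reached the minimum. Mir22hg, the host of miR-22, had 10.0 FPKM in Ad-MAFG livers and 15.7 FPKM in Ad-CMV livers (-0.64) on a row opposite to its strand, and 0.597 FPKM with Ad-MAFG and 1.63 FPKM with Ad-CMV (-1.31) on its own-strand row. It overlaps Tlcd2, a gene of a lipid-metabolism domain family, which had 10.8 FPKM with Ad-MAFG and 23.2 FPKM with Ad-CMV (-1.10). Mir99ahg, the host of miR-99a, let-7c and miR-125b, had 1.60 FPKM in Ad-MAFG livers and 1.86 FPKM in Ad-CMV livers on a row opposite to its strand. A further opposite-strand row had 0.651 FPKM with Ad-MAFG and 0.532 FPKM with Ad-CMV. The own-strand row of Mir99ahg had 0 FPKM with Ad-MAFG and 0.00584 FPKM with Ad-CMV. Of 2 imprinted members, Snhg14 passed and Nctc1 did not, and neither Gas5 nor Tug1 of the well-known noncoding RNAs did. In all, 8 of 14 list members passed.

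Among the lower processed transcript loci, Gm13775 (chr4:61783123-61801286) had 0.0558 FPKM in Ad-MAFG livers and 3.51 FPKM in Ad-CMV livers (log2 ratio -4.54). It lies in the cluster of major urinary protein genes, secreted carriers of pheromones, 854 bases from Mup19, which was listed at 0 in Ad-MAFG livers and at 0.565 FPKM in Ad-CMV livers. Genes of this cluster are near-identical copies, so the assignment of reads among them is uncertain. RP23-114A6.4 (BC024386, chr7:140906014-140907983) had 0.459 FPKM with Ad-MAFG and 3.50 FPKM with Ad-CMV (-2.69) with no protein-coding gene within 5 kb, and its value lay on its own strand. A330040F15Rik (chr19:12585868-12596566), in an intron of the protease gene Fam111a, had 0.0350 FPKM with Ad-MAFG and 0.627 FPKM with Ad-CMV (-2.43), beside 0.373 FPKM with Ad-MAFG and 0.651 FPKM with Ad-CMV for Fam111a. 4930506C21Rik (chr17:8293366-8311080), opposite to Mpc1, which encodes a subunit of the mitochondrial pyruvate carrier, had 0.564 FPKM with Ad-MAFG and 2.24 FPKM with Ad-CMV (-1.82), with Mpc1 listed at 0 in both groups. Sft2d1, on the other strand and 22 bases from the locus, had 0.0588 FPKM with Ad-MAFG and 0.0952 FPKM with Ad-CMV.

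The next 3 lower loci each have a protein-coding gene on the other strand within 5 kb. The value given first for each lies on a row opposite to its own strand. 2010001A14Rik (chr11:57795499-57801417), 220 bases from the histone deacetylase complex gene Sap30l, had 0.260 FPKM in Ad-MAFG livers and 0.954 FPKM in Ad-CMV livers (-1.55), and its own-strand row 0.247 FPKM with Ad-MAFG and 0.477 FPKM with Ad-CMV. Gm36070 (chr3:94356507-94360842), 1596 bases from C2cd4d, had 0.130 FPKM with Ad-MAFG and 0.531 FPKM with Ad-CMV (-1.45), and C2cd4d was lower as well (0.342 FPKM with Ad-MAFG and 1.53 FPKM with Ad-CMV, -1.88). Gm43223 (Gm19391, chr3:109120533-109122895), 254 bases from the mitochondrial carrier gene Slc25a24, had 0.236 FPKM with Ad-MAFG and 0.780 FPKM with Ad-CMV (-1.39), whereas a further row of the locus pointed the other way (0.495 FPKM with Ad-MAFG and 0.221 FPKM with Ad-CMV) and Slc25a24 was higher (11.7 FPKM with Ad-MAFG and 2.52 FPKM with Ad-CMV, 2.18).

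Loci of this kind, without overlap but within 5 kb of a protein-coding gene on the other strand, were mostly lower. This class is among several classes of position and was not set in advance. It holds Gm13775 and the lower loci of the paragraph above. Of 27 such processed transcript loci past the minimum, 24 lay head to head with the gene, at a median distance of 132 bases, and 21 of these 24 were below 0 with a median log2 ratio of -0.39. Over all 27, 23 were below 0 (85.2%), beside 53.2% of all genes, and 5 were at least 2-fold lower (18.5%), beside 5.17% of all genes, and 0 at least 2-fold higher, beside 6.00%. Their 17 neighbouring genes past the minimum had a median of -0.11, and 11 were below 0. In each of these 11 pairs the locus was below 0 too, as were most loci of the class. For 18 of the 27 loci the value lay on the strand of the neighbouring gene. The 5 head-to-head TEC loci had a median of -0.02. The difference between these classes was not tested.

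Of the higher processed transcript loci, C4a (chr17:34809092-34823464) had 2.94 FPKM in Ad-MAFG livers and 0.415 FPKM in Ad-CMV livers (log2 ratio 2.56). C4a is the sex-limited copy of the complement C4 gene, nearly identical to C4b, so reads may be shared between both. C4b, listed on the strand opposite to itself, had 29.4 FPKM in Ad-MAFG livers and 39.1 FPKM in Ad-CMV livers (-0.41). The neighbour Cyp21a1, the steroid 21-hydroxylase gene 4531 bases away, had 10.9 FPKM with Ad-MAFG and 0.358 FPKM with Ad-CMV (4.59), also on the opposite strand, and Stk19 on the other side had 1.40 FPKM with Ad-MAFG and 1.42 FPKM with Ad-CMV (-0.02). Gm14866 (chrX:100736983-100740929), across exons of the glycerophosphodiesterase-family gene Gdpd2, had 0.742 FPKM in Ad-MAFG livers and was listed at 0 in Ad-CMV livers, with Gdpd2 at or near 0 in both.

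8030453O22Rik (chr6:39527513-39544486), opposite to Dennd2a, a gene of the DENN-domain family of Rab activators, had 0.972 FPKM with Ad-MAFG and 0.201 FPKM with Ad-CMV (1.83). Of its 8 rows all had a ratio above 0, between 0.35 and 1.83, and the own-strand row had 0.555 FPKM with Ad-MAFG and 0.133 FPKM with Ad-CMV (1.49), beside 1.86 FPKM with Ad-MAFG and 1.25 FPKM with Ad-CMV for Dennd2a. AI506816 (chr5:23698296-23712667), with no protein-coding gene within 5 kb, had 3.18 FPKM in Ad-MAFG livers and 0.978 FPKM in Ad-CMV livers (1.61). That value lies on a row opposite to its strand, and its own-strand row was at 0 in both groups. Gm11748 (chr11:118476470-118479458), opposite to the glycosidase gene Engase, had 1.47 FPKM with Ad-MAFG and 0.425 FPKM with Ad-CMV (1.58), and Gm830 (chr4:95464724-95487394) 0.552 FPKM with Ad-MAFG and 0.151 FPKM with Ad-CMV (1.37), the latter on a row opposite to its strand. Gm43448 (chr5:90553199-90589077) had 1.09 FPKM in Ad-MAFG livers and 0.368 FPKM in Ad-CMV livers (1.34). It lies opposite to Afm, the albumin-family gene of afamin, which had 2.27 FPKM with Ad-MAFG and 0.768 FPKM with Ad-CMV (1.45), and to 5830473C10Rik, which had 1.75 FPKM with Ad-MAFG and 1.09 FPKM with Ad-CMV (0.64).

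At least a 2-fold difference was found for 11.2% of all genes. Of the 19 processed transcript loci with no protein-coding gene within 5 kb, 8 differed at least 2-fold (42.1%), 4 higher and 4 lower, and of the 22 such TEC loci 3 did (13.6%), 2 higher and 1 lower. Over exons on the opposite strand, 11 of 93 processed transcript loci (11.8%) and 3 of 69 TEC loci (4.35%) differed. The shares other than the 42.1% and the 4.35% are thus close to that of all genes, the groups are small, and no test was run.

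The ends of the transcripts were searched for polyadenylation signals. A hexamer AATAAA or ATTAAA stood in the last 60 bases of 735 of 2469 TEC transcripts (29.8%), against 354 of 659 processed transcripts (53.7%), 40.8% of lincRNA and 65.7% of protein-coding transcripts. Among loci past the minimum it stood in 80 of 205 TEC transcripts (39.0%) and 107 of 166 processed transcripts (64.5%). Only the sense strand was searched, and a missing hexamer says only that these letters are not in this window.

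In RefSeq promoters, matched for 108 of 166 processed transcript and 7 of 206 TEC loci past the minimum, both strands were searched for short forms of MAF-type elements. TGCTGAC stood in 5 of the 108 processed transcript promoters (4.63%), beside 5.28% of 27025 genes of the promoter table. TGACNNNGC, which can share its TGAC with TGCTGAC, stood in 16 (14.8%), beside 14.0%, and GCTGAGTCA in 0, beside 0.503%. Of the 13 promoters of loci at least 2-fold lower, 0 held TGCTGAC and 1 held TGACNNNGC, and of the 6 of loci at least 2-fold higher, 1 held each. In the 7 TEC promoters, 0 matches were found. These matches describe letters in a window and not binding.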

How the data were processed

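RNA from livers of 3 Ad-MAFG and 3 Ad-CMV mice was rRNA-depleted and sequenced as paired reads from strand-marking libraries. The submitters' processing notes name STAR 2.6.0c, Bowtie2 2.2.9, Cufflinks 2.2.1 and Cuffdiff with mm10 (GRCm38), without the order or settings, and the deposited table has the layout of Cuffdiff output. The deposited table of 68997 rows and 47 columns lists 1 assembled transcript for each assembled locus, so an abundant gene can be represented by a minor form. The deposited FPKM values are the authors' pooled value for each group, and 0 columns hold values per sample. GC percent, length and biotype are annotation columns of the deposited table, which the authors added to their output. Columns with the authors' own fold change, test score, p-value, q-value and call were not used.

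Groups were taken from the sample titles. A legend of the study gives another number of mice for this experiment than the labels. Each Ensembl gene was represented by its row with the highest mean FPKM. Loci needed 0.5 FPKM in the higher group, and a difference meant at least 2-fold on the log2 scale after a pseudocount of 0.1 FPKM, which understates the ratio of low loci. With 1 value per group no test was possible, depth is unknown, and no error can be given. Positions and neighbours within 5 kb came from GENCODE M21 on the same build, which held 3120 of the 3162 genes. Named are the 7 loci with the highest and the 7 with the lowest ratio of each biotype, the 5 with the highest mean, and members of 4 lists past the minimum. The members and lists were chosen with earlier results of these data known, so none of them is independent support. The accuracy of the calls and of the strand reading for the deposited table was not tested. Alternatives changed the pseudocount, the minimum, the fold, the rows used, the strand, the centring and the choice of overlapping genes. Python 3.11.15, pandas 2.3.3, numpy 2.4.6, scipy 1.17.1 and matplotlib 3.10.9 were used. The sequence of 1 TEC locus is not reported here.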

Additional observations from a re-analysis of the deposited data

How the results depend on the processing

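The counts of loci at least 2-fold apart depended on the thresholds. None of the 43 named loci changed direction under an alternative that gave it a value, and a pseudocount of 1 FPKM brought 20 of them within 2-fold. Further rows of some named loci, Gm43223, Mir99ahg and Snhg1 among them, point the other way. With a pseudocount of 1 FPKM, 2 TEC and 5 processed transcript loci (and 4.26% of all genes) differed at least 2-fold, in place of 14 and 28. Shares in parentheses are those of all genes. With a minimum of 0.1 FPKM or with none, 36 and 44 did (14.0% and 4.43% of all genes), and with a minimum of 1 FPKM 4 and 17 (10.1%). At least 1.5-fold was reached by 40 and 45 loci (2772 of all 11479 genes) and 4-fold by 5 and 5 (3.17%). The share of processed transcript loci was under that of all genes with the pseudocount of 1 FPKM and at 4-fold. With rows on the strand of the gene only, 9 and 16 differed (13.5%). Without loci that overlap a protein-coding gene, a choice made after seeing the data, 6 and 14 differed (11.3%) and the median of processed transcript loci was -0.24, while with no minimum it was 0.00. Other medians moved by at most 0.1. Rows of status OK, every row counted, no pseudocount and centring on all genes kept the counts within 1.5 times. Pearson's r of TEC loci and their genes was 0.57 with genes on the same strand only, in place of 0.79. Spearman's rho moved less, at 0.73 in place of 0.77, and r was 0.64 over all pairs but those of Ces3a and Gipc2. The cause was not tested. Likeness without pairs that share assembled coordinates could not be computed for TEC loci, and 2 pairs of processed transcript loci remained, nor was it computed for the 5 processed transcript pairs on the same strand. No paired analysis was possible because the table holds 1 pooled value per group and the labels share no replicate number. For the same reason no mouse could be left out and the replicate error and depth behind each value are unknown.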

Other observations

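A few further members, chosen after their values were seen, are given by their values. Gm20319, opposite to exons of Il1rap, the accessory protein of the interleukin-1 receptor, had 3.03 FPKM in Ad-MAFG livers and 6.86 FPKM in Ad-CMV livers (log2 ratio -1.16), and Il1rap had 2.72 FPKM with Ad-MAFG and 11.5 FPKM with Ad-CMV (-2.04). 1700023H06Rik, in an intron of the arrestin-domain gene Arrdc3, had 5.26 FPKM in Ad-MAFG livers and 11.4 FPKM in Ad-CMV livers (-1.10), with the listed Arrdc3 row at 0.0122 FPKM with Ad-MAFG and 0.0405 FPKM with Ad-CMV. Particl, a TEC locus opposite to Mat2a, which encodes the catalytic subunit of a methionine adenosyltransferase, had 1.23 FPKM with Ad-MAFG and 1.27 FPKM with Ad-CMV (-0.04). Firre, a nuclear noncoding RNA of the X chromosome, had 1.87 FPKM with Ad-MAFG and 1.94 FPKM with Ad-CMV (-0.05).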
